A study of Mus musculus with 18 samples.

Results

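Isolated loops are described here: chromatin loops neither of whose ends touches the end of any other loop in the deposited loop list. In a chromatin loop, 2 distant sites on a chromosome, the anchors, contact each other in the nucleus at a higher rate than the DNA around them. Members were chosen by the listed coordinates of loops and domains alone. They were the loops on autosomes with 50 to 1000 kb between anchor midpoints, with both midpoints inside at least 1 topologically associating domain (a chromosome segment that contacts itself more than its flanks), and with no anchor overlapping an anchor of another loop by 1 bp or more. There were 1172 such loops among 20926 in the list. The comparison group was the 14695 loops of the same span range, also held by a domain, that overlapped an anchor of another loop, called sharing loops.

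The lists come from Micro-C, a conformation capture assay that cuts chromatin with micrococcal nuclease and ligates DNA ends lying close together. The 18 samples were all G1E-ER4 mouse erythroblasts of an LDB1-AID subline, in which LDB1 carries an auxin-inducible degron, a tag that generally leads to loss of the protein once auxin is added. There were 9 untreated samples and 9 samples given auxin for 4 h, each group numbered from 1 to 9, and the labels do not say whether these were separate cultures. The loop list and the list of 13483 domains were each made once for the whole series, so no value belongs to a sample or a treatment, read depth is unknown here, and the effect of auxin was not analysed here. The series asks by its title how Ldb1 joins several enhancers into networks.

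Loops of this size in mammalian cells are known to form in more than 1 way. Cohesin, a ring complex that extrudes DNA, halts at sites bound by CTCF, and the halted sites become anchors of loops that often frame whole domains. Other loops join enhancers with promoters. In erythroid cells LDB1, which carries no DNA-binding domain of its own, is recruited by LMO2, TAL1 and GATA1 and can dimerise, so that it bridges sites bound by these factors. One anchor can take part in several contacts, in the same cell or in different cells, and a list made from many cells records them all as loops that share that anchor. No gene annotation or sequence of the files' genome build (mm9, per the submitters' processing notes) was used here, so the anchors are given by position and no gene or sequence is attached to them.

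Isolated loops made up 7.39% of the 15867 held autosomal loops in the span range (95% Wilson interval 6.99 to 7.80%). Such intervals cover only the counting of loops. In the whole list 1880 loops shared no anchor. Of these, 95 lay on X, 212 autosomal ones were shorter than 50 kb and 194 were longer than 1000 kb. Of the 1379 that remained, 207 were held by no domain. The share held by a domain was 84.99% for loops without a shared anchor (83.0 to 86.8%) and 88.1% for loops with one (87.6 to 88.6%), a description only, since holding is part of the definition.

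Most isolated loops had other loop ends close by. For each anchor the gap to the nearest anchor of any other loop was measured from edge to edge. For the nearer of a loop's 2 anchors the median gap was 8 kb, with quartiles of 2 and 30 kb. It was 0 kb for 262 loops (22.4%), whose anchor directly abutted another anchor, and above 0 but under 10 kb, the width of 1 anchor, for 337 (28.8%). It was 10 to 50 kb for 367 loops (31.3%). Only 206 loops (17.6%) were more than 50 kb from every other anchor, and 15 (1.28%) were more than 1 Mb away. For the farther anchor the median gap was 40 kb. About as many members had another anchor within 1 anchor width (599) as had none (573).

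**Figure D1:**
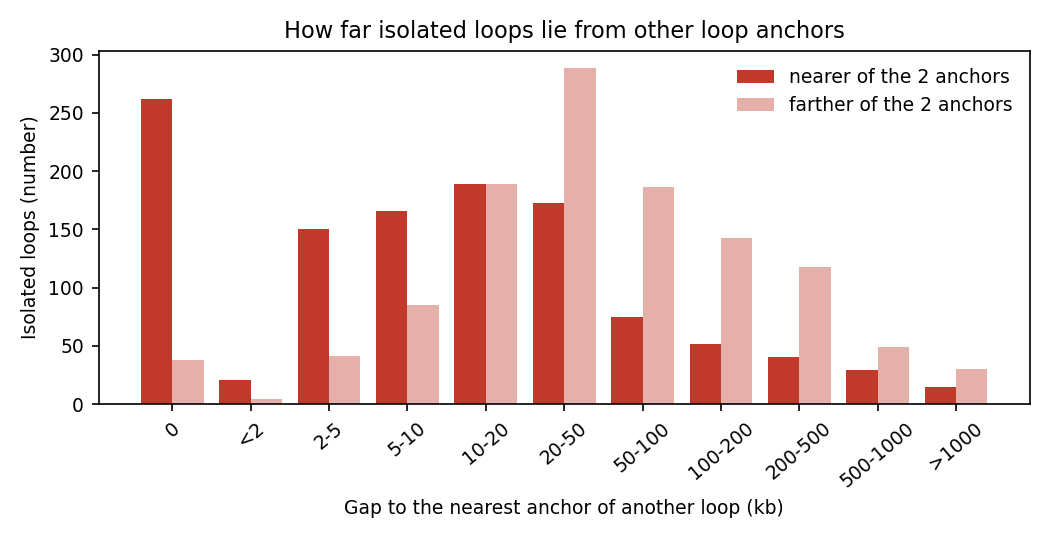
Number of isolated loops (vertical axis) by the gap in kb from an anchor to the nearest anchor of another loop (horizontal axis, classes of unequal width), for the nearer and the farther of each loop's 2 anchors. The class of 0 kb holds 262 nearer anchors and 38 farther anchors, and gaps above 1000 kb are found for 15 nearer anchors and 30 farther anchors.

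Just inside the limit of the definition were the 262 loops with a gap of 0 bp and 10 with a gap of 500 bp. Just outside were 22 sharing loops whose greatest overlap with any other anchor was 500 bp and 16 with 1500 bp. At the lower limit of span, 36 isolated loops had a span of exactly 50 kb, and 10 otherwise qualifying loops of 48 kb were left out. At the upper limit the longest member spanned 990 kb and the shortest loop left out spanned 1020 kb. An example just inside the limit is a loop on chromosome 1 between positions 16430001 to 16440000 and 16730001 to 16740000, whose left anchor abutted another anchor and whose right anchor lay 40 kb from the next.

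Close neighbours were usually on 1 side only. Both anchors had another anchor under 10 kb away in 168 loops (14.3%). The left anchor alone did in 222 (18.9%) and the right anchor alone in 209 (17.8%). In 573 loops (48.9%) neither did. The 767 anchors of isolated loops with a neighbour under 10 kb away were next to an anchor of the same side, left beside left or right beside right, in 498 cases (64.9%) and next to one of the opposite side in 233 (30.4%). For sharing loops the corresponding figures, overlaps included, were 77.1% and 17.1%. The neighbouring anchor served 1 loop in 412 of the 767 cases (53.7%), 2 or more in 355 (46.3%) and 5 or more in 37 (4.82%). A loop running nearly parallel, with both midpoints within 50 kb of the member's own, existed for 301 isolated loops (25.7%) and for 55.7% of sharing loops.

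The number of abutting anchors followed in part from the coordinates on which loops were listed. All anchors are 10 kb wide, and they start on 3 grids of 2, 5 and 10 kb steps. Neighbouring steps of the 10 kb grid abut without overlapping, whereas neighbouring steps of the finer grids overlap, so the definition itself favours the 10 kb grid. That grid held 546 isolated loops (46.6%) against 30.1% of sharing loops. The 5 kb grid held 474 (40.4%) against 51.3%, and the 2 kb grid 152 (12.97%) against 18.6%. Of the 300 abutting anchors, 286 abutted an anchor of a loop on the same grid. Among isolated loops on the 10 kb grid 192 (35.2%) abutted another anchor, compared with 58 (12.2%) of those with 5 kb steps and 12 (7.89%) of those with 2 kb steps. When loops with another anchor within 10 kb were left out, the excess on the 10 kb grid, averaged over autosomes, shrank from 16.4 to 5.60 percentage points.

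The share of isolated loops depended on span. It was 8.80% for spans of 50 to 100 kb (7.92 to 9.75%), 6.48% for 100 to 200 kb (5.87 to 7.16%), 6.52% for 200 to 400 kb (5.84 to 7.27%) and 9.21% for 400 to 1000 kb (8.04 to 10.5%). On the 5 kb grid this dip at middle spans was deeper, with 9.38%, 4.81%, 3.95% and 7.29% in the same order. On the 10 kb grid the share stayed between 10.1% and 12.1% in all 4 classes. On the 2 kb grid, which has no spans over 198 kb here, it was 7.31% below 100 kb and 3.46% above. These shares are descriptions, since the grid is tied to the definition.

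**Figure D2:**
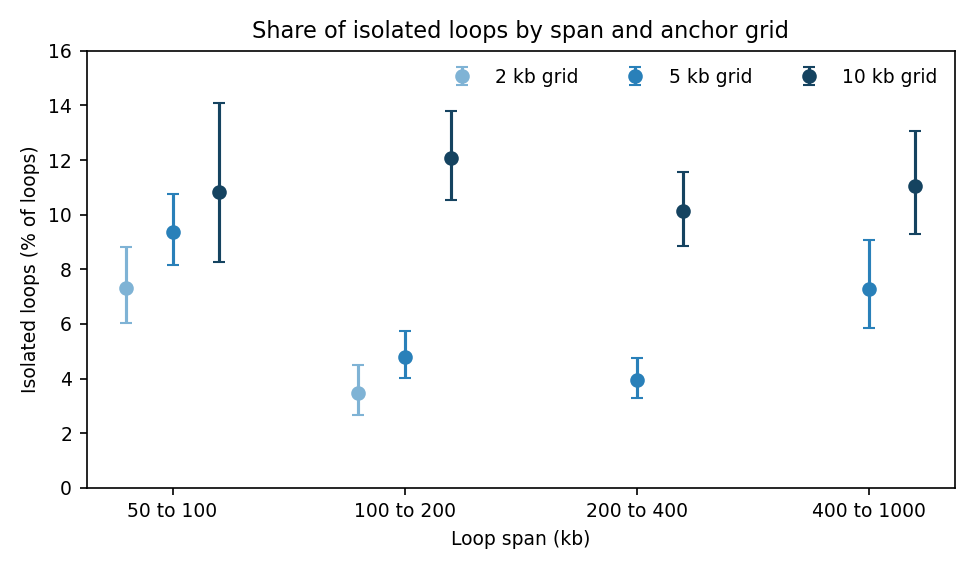
Isolated loops as a percentage of all held autosomal loops (vertical axis) in 4 classes of loop span in kb (horizontal axis), by anchor grid, with 95% Wilson intervals as bars. On the 5 kb grid the share falls from 9.38% at 50 to 100 kb to 3.95% at 200 to 400 kb, while on the 10 kb grid it stays between 10.1% and 12.1%.

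Spans of isolated loops ran from 50 to 990 kb with a median of 162 kb, and those of sharing loops had a median of 170 kb. For this and 5 further measures, each autosome gave 1 value for isolated and 1 for sharing loops, and the differences over the 19 autosomes were tested with a two-sided paired permutation test (100000 sign flips), with p-values adjusted by the Benjamini-Hochberg method over the 6 measures. Autosomes share libraries and callers, so the p-values measure only the spread between autosomes. Median span averaged 163 kb ± 29.2 (SD, n = 19 autosomes) for isolated loops and 170 kb ± 15.9 for sharing loops. The difference of -7.05 kb ± 30.5 did not pass the threshold of 0.05 (permutation p = 0.35, adjusted p = 0.35), and isolated loops had the longer median on 9 autosomes and the shorter on 8.

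Within single grids the median span of isolated loops was lower. On the 5 kb grid their median span averaged 139 kb, against 180 kb for sharing loops, a difference of -41.1 kb, and it was lower on 16 of 19 autosomes (permutation p = 0.00086). With the 2 kb grid alone the difference was -23.2 kb, lower on 18 of 19 (permutation p = 6e-05). With the 10 kb grid alone it was -20.3 kb, lower on 11 and higher on 5 (permutation p = 0.035). These 3 p-values are unadjusted, the 2 kb and 10 kb grids were taken singly only after the data were examined, and the grid is tied to the definition. Isolated loops lay more often on the 10 kb grid, where spans were longest, with medians of 220 kb for isolated and 230 kb for sharing loops.

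Counted once per loop, anchors of isolated loops lay less often at domain boundaries, the starts and ends of listed domains, where extruding cohesin is known to be halted. Within 20 kb of a boundary lay the left anchor of 189 isolated loops (16.1%) and the right anchor of 286 (24.4%). Among sharing loops these shares were 20.7% and 34.8%, and over all anchors of both groups the share was 27.2%. A site used by several sharing loops was counted once for each of them, here and in all boundary shares below. Distinct sites were not compared. Averaged over autosomes, 20.1% ± 3.48 (SD, n = 19) of the anchors of isolated loops were near a boundary, against 27.7% ± 2.46 for sharing loops. The difference of -7.52 ± 3.595 percentage points was negative on all 19 autosomes, from -16.6 to -2.74 (permutation p = 2e-05, the smallest that these flips can give; adjusted p = 0.00012). The values of the groups overlapped between autosomes, from 12.2 to 24.6% for isolated and from 21.3 to 31.9% for sharing loops. Neither anchor was within 20 kb of a boundary in 741 isolated loops (63.2%), compared with 51.7% of sharing loops. The definition leaves out loops with an overlapping anchor, and anchors of sharing loops were crowded beside boundaries. How much of the difference follows from the definition was not tested, and the p-value does not measure it.

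The lower share held in each span class. It was 13.4% of anchors for isolated loops against 18.2% for sharing loops at 50 to 100 kb, 18.2% against 24.1% at 100 to 200 kb, 24.9% against 34.8% at 200 to 400 kb and 28.7% against 39.0% at 400 to 1000 kb. Compared within span classes, the mean difference over autosomes was -7.11 percentage points, again negative on 19 of 19 (permutation p = 2e-05). With a distance of 40 kb it was -11.9 percentage points.

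Both groups showed a similar arrangement around boundaries. Left anchors of isolated loops were most frequent 30 kb above a boundary, with 15.0 anchor-boundary pairs per 100 anchors, and right anchors 20 kb below one, with 15.4 pairs. Sharing loops had their peaks at 40 and -20 kb, with 19.95 and 21.8 pairs per 100 anchors. On the far side of the boundary the curves were low in both groups, with 2.13 pairs per 100 left anchors of isolated loops at -20 kb and 1.71 pairs per 100 right anchors at 40 kb. Isolated loops thus had lower peaks at about the same places. This profile is a description, and the rule that both midpoints lie inside a domain favours its one-sided shape in both groups.

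**Figure D3:**
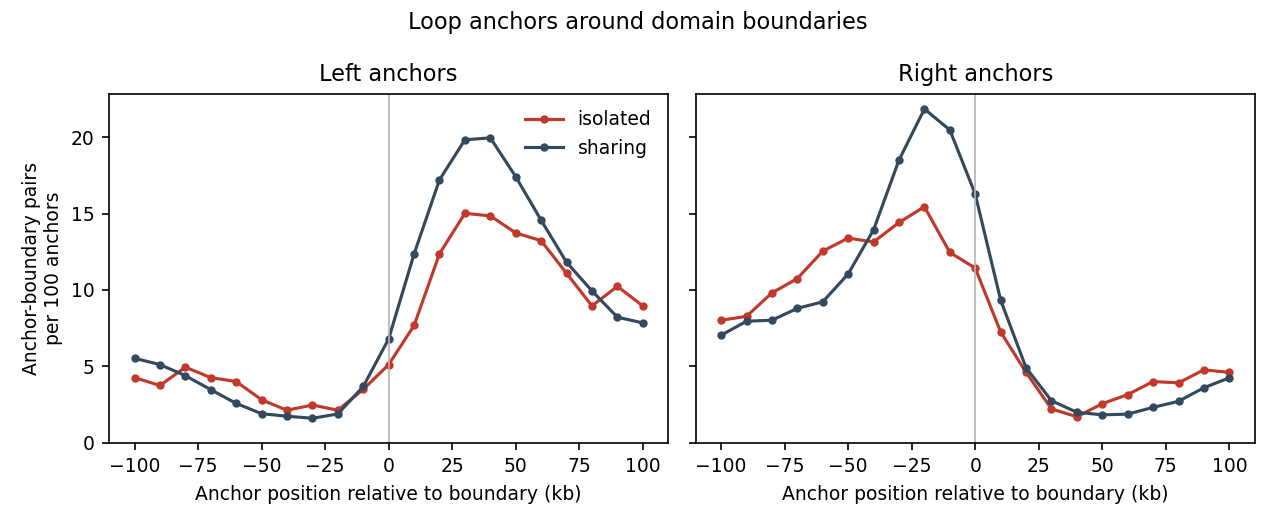
Pairs of a loop anchor and a domain boundary per 100 anchors (vertical axis) by the position of the anchor midpoint relative to the boundary in kb (horizontal axis, steps of 10 kb), for left and right anchors. The peaks of isolated loops reach 15.0 and 15.4 pairs, below the 19.95 and 21.8 pairs of sharing loops.

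Isolated loops rarely framed a domain. A loop was called a corner loop where some domain started within 20 kb of its left anchor and ended within 20 kb of its right one. There were 18 among 1172 isolated loops (1.54%, interval 0.974 to 2.41%) and 569 among sharing loops (3.87%, interval 3.57 to 4.20%), and 3.70% over both groups. Averaged over autosomes the shares were 1.61% ± 1.89 (SD, n = 19) and 3.82% ± 0.909, a difference of -2.21 ± 1.70 percentage points, negative on 17 of 19 autosomes (permutation p = 0.00012, adjusted p = 0.00024). Only 11 autosomes had any isolated corner loop. On the others the isolated share was 0%, the lowest it can be. When only domains inside no other domain were used, the difference was -0.32 percentage points and no longer passed (permutation p = 0.095).

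Corner loops among the members were all longer than 200 kb. None of the 685 isolated loops shorter than 200 kb was a corner loop, where a count of 0 allows a share of up to 0.438% (3 counts of 685; the upper Wilson limit is 0.558%), and 145 of 8562 sharing loops of that length were (1.69%). At 200 to 400 kb the shares were 6 of 297 (2.02%, interval 0.929 to 4.34%) and 7.58% (6.82 to 8.41%). At 400 to 1000 kb they were 12 of 190 (6.32%, interval 3.65 to 10.7%) and 5.40% (4.46 to 6.51%), intervals that overlap. Whether the difference itself varies with span was not tested. The 18 isolated corner loops lay on 11 autosomes and spanned 240 to 990 kb, with a median of 410 kb. In 12 of them another anchor was under 10 kb away, and 8 were the only loop in their smallest holding domain.

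The closest fit to a domain was a loop on chromosome 8 between positions 13357501 to 13367500 and 13762501 to 13772500. Its anchor midpoints lay 0.834 and 2.5 kb from the ends of a domain listed at 13361667 to 13765000. That start lies on none of the 3 grids of the loop anchors, so the smaller distance should not be read as exact. The loop was far from alone, since 6 loops lay inside it and its right anchor abutted another anchor. On chromosome 11 a loop between 45750001 to 45760000 and 46030001 to 46040000 lay 5 and 0 kb from the ends of a domain. Chromosome 7 had a pair of such loops. One, between 74512501 to 74522500 and 74782501 to 74792500, was crossed by 4 loops, and the other, between 135497501 to 135507500 and 135912501 to 135922500, held 8 loops and was crossed by 4. The fifth, on chromosome 18 between 20090001 to 20100000 and 20720001 to 20730000, had no loop inside, around or across it, and its nearest other anchors were 692.5 and 62.5 kb away. The longest isolated loop was also a corner loop. It ran for 990 kb on chromosome 11, from 110390001 to 110400000 to 111380001 to 111390000, and covered 98.0% of a domain that held no other loop. The right anchor of this loop abutted another anchor, and its left anchor lay 870 kb from the next.

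Over all grids together, isolated loops lay in larger domains than sharing loops and were held by more of them. The smallest domain that held an isolated loop had a median size of 435 kb, with quartiles of 290 and 730 kb, compared with 390 kb and quartiles of 280 and 605 kb for sharing loops. Over autosomes the medians averaged 443 kb ± 65.1 (SD, n = 19) and 393 kb ± 25.6. The difference of 50.02 kb ± 63.9 was positive on 12 autosomes and negative on 4 (permutation p = 0.001, adjusted p = 0.0012). This call depended on the grid: the difference was 63.1 kb for 2 kb steps (permutation p = 0.0052), 22.3 kb for 5 kb steps (permutation p = 0.2) and 2.81 kb for 10 kb steps (permutation p = 0.89). Compared within span classes over all grids it was 66.2 kb, positive on 18 of 19 autosomes (permutation p = 2e-05). That comparison did not hold the grid fixed. At 50 to 100 kb the pooled medians hardly differed, with 300 kb for isolated and 296 kb for sharing loops. They were 354 and 315 kb at 100 to 200 kb, and 545 and 480 kb at 200 to 400 kb. At 400 to 1000 kb they were 1025 and 835 kb.

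Isolated loops were held by a mean of 2.27 ± 0.152 domains (SD, n = 19 autosomes), against 2.10 ± 0.169 for sharing loops. Both groups were limited alike to loops with at least 1 holding domain, so only the number beyond the first can differ. The difference of 0.164 ± 0.176 domains was positive on 16 of 19 autosomes (permutation p = 0.00058, adjusted p = 0.00087). It missed the threshold on the 2 kb grid alone, at 0.208 domains (permutation p = 0.074). Of the isolated loops 146 (12.5%) were held by 4 or more domains, compared with 9.64% of sharing loops.

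Isolated loops spanned a smaller part of their domain. The median was 38.01% of the smallest holding domain, compared with 44.0% for sharing loops. Averaged over autosomes the medians were 37.9% ± 4.01 (SD, n = 19) and 44.4% ± 2.55, and the difference of -6.49 ± 4.38 percentage points was negative on 17 of 19 autosomes (permutation p = 4e-05, adjusted p = 0.00012). Only 90 isolated loops (7.68%) reached over more than 75% of their domain, against 13.8% of sharing loops. At 400 to 1000 kb the median share was 59.1% for isolated and 67.9% for sharing loops, and at 50 to 100 kb it was 22.9% and 24.0%.

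**Figure D4:**
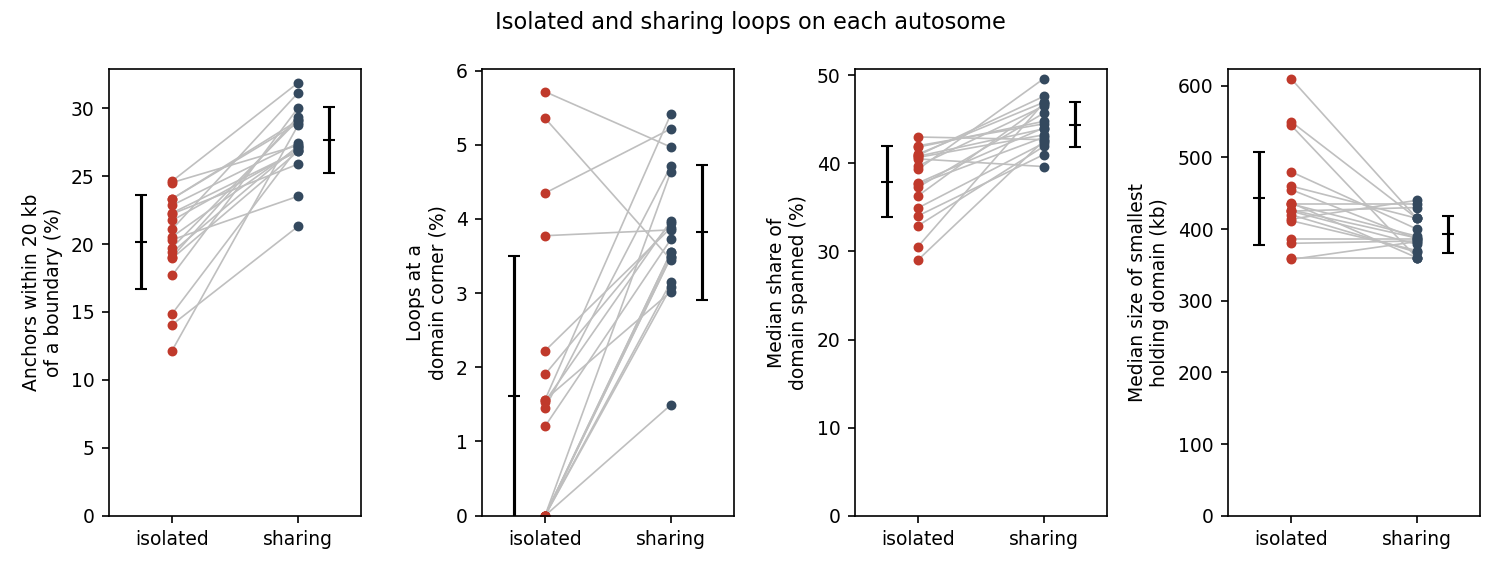
Values of isolated and sharing loops on each of the 19 autosomes, joined by lines, for the percentage of anchors within 20 kb of a boundary, the percentage of loops at a domain corner, the median percentage of the smallest holding domain spanned and that domain's median size in kb; black marks give the mean and SD over autosomes, and the lower bar of the corner panel is clipped at 0. In the first panel all 19 lines rise from isolated to sharing loops, whose means are 20.1% and 27.7%.

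Loops around the isolated ones were fewer, as follows in part from the definition. The smallest holding domain contained a median of 2 other loops (quartiles 0 and 5), compared with 6 (3 and 11) for sharing loops. No other loop was in that domain for 347 isolated loops (29.6%), against 3.76% of sharing loops. At the other end, 133 isolated loops (11.3%) lay among more than 10 other loops. The differences in boundary, corner and domain measures came with this lower number of neighbouring loops, whose part in them was not tested. Among the 12571 autosomal domains, 1376 held exactly 1 loop, and in 575 of these (41.8%) it was an isolated loop as defined here. Counted by loops, isolated loops made up 7.39% of held autosomal loops in the span range. The 2 shares are not on the same scale, since the first counts domains, whose single loop could be of any span. Domains can overlap, so 1 loop can be counted for several domains.

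Seen as arcs along the chromosome, 900 isolated loops (76.8%) held no other loop inside them, compared with 36.1% of sharing loops. There were 500 (42.7%) inside no other loop, against 17.3%, and 487 (41.6%) crossed by none, against 14.2%. All 3 held for 214 isolated loops (18.3%) and for 33 of the 14695 sharing loops (0.225%). In 170 isolated loops (14.5%) the smallest domain held no other loop either. All these counts are descriptions tied to the definition. Loops whose anchors overlap on the same side must lie inside, hold or cross one another.

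The members differed among themselves with the distance to other anchors. The 262 abutting loops had a median span of 210 kb, and 73.3% were on the 10 kb grid. Their anchors were within 20 kb of a boundary in 25.6% of cases, and 8 were corner loops. The 337 loops with a gap under 10 kb had a median span of 130 kb and 18.4% of anchors near a boundary. The 367 loops with a gap of 10 to 50 kb had a median span of 155 kb and 19.6% of anchors near a boundary. The 206 loops with a gap over 50 kb had a median span of 175.5 kb, 17.7% of anchors near a boundary and 2 corner loops. Of these last, 166 (80.6%) were the only loop of their smallest domain, compared with 27 (10.3%) of the abutting loops. Differences between these classes were not tested. The difference from sharing loops in the percentage of anchors near a boundary was -10.3 percentage points for loops over 50 kb from any other anchor (permutation p = 0.00012, negative on 17 of 19 autosomes). This p-value is unadjusted, and autosomes with 2 to 22 such loops counted equally. These loops were picked by a stricter form of the same definition, so the value is no separate support.

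The 15 loops more than 1 Mb from any other anchor lay on 10 autosomes. Their spans were 50 to 530 kb with a median of 150 kb, 11 were on the 5 kb grid, and all 15 were the only loop in their smallest domain. None was a corner loop, where 1.54% of all isolated loops were, and 9 had an anchor within 20 kb of a boundary. Neither anchor was that close in 63.2% of all isolated loops and in 51.7% of sharing loops. The rest of each group had at least 1 anchor that close, in both cases a smaller part than 9 of 15. Differences for so few loops were not tested. The most remote joined positions 76647501 to 76657500 and 76917501 to 76927500 on chromosome 4, with the next anchors 4457.5 kb to one side and 4422.5 kb to the other. It spanned 270 kb inside 4 domains, the smallest of which was 1010 kb long. The next, on chromosome 5 between 81892501 to 81902500 and 82097501 to 82107500, was at least 4122.5 kb from other anchors and covered 79.6% of a domain of 257.5 kb. On chromosome 16 a loop of 55 kb between 80052501 to 80062500 and 80107501 to 80117500 was 3032.5 kb from the nearest other anchor. On chromosome 8, a loop of 150 kb between 102102501 to 102112500 and 102252501 to 102262500 was 2920 kb away. On chromosome 15, a loop of 485 kb between 47927501 to 47937500 and 48412501 to 48422500 was 2681.5 kb away. The 5 are all on the 5 kb grid, and none had a loop inside, around or across it. The first by position of the 36 members of 50 kb, on chromosome 1 between 137042501 to 137052500 and 137092501 to 137102500, had 3 loops around it and 5 across it.

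Isolated loops occurred on every autosome, from 35 on chromosome 18 to 105 on chromosome 7. Their share of held loops averaged 7.56% ± 1.51 (SD, n = 19), with a median of 7.35%. Chromosome 2 had the lowest share, 4.98%, followed by chromosome 11 with 5.40%, and chromosome 14 the highest, 11.4%, followed by chromosome 13 with 9.25%. Chromosome 14 also had the lowest density of loops of all kinds, 6.09 per Mb, and the largest number of members over 50 kb from any other anchor, 22. Chromosome 11 had the highest density of loops, 13.2 per Mb. Per Mb of chromosome, isolated loops ranged from 0.370 on chromosome 2 to 0.702 on chromosome 7. Across the 19 autosomes the share of isolated loops and the density of all loops had a Pearson correlation of -0.40 and a Spearman correlation of -0.24. Without chromosomes 11 and 19, the farthest from the median density, Pearson's value was -0.24. The number of isolated loops per Mb correlated with loop density at 0.58. The points share libraries and callers, and both measures include the isolated loops themselves, so these are descriptions.

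**Figure D5:**
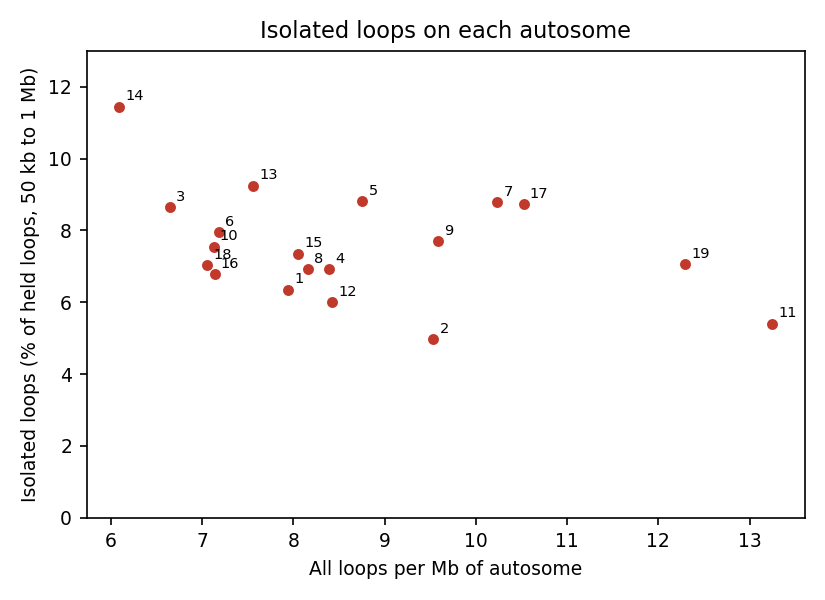
Isolated loops as a percentage of held loops of 50 kb to 1 Mb (vertical axis) against the number of all loops per Mb (horizontal axis), 1 point per autosome with its number. Chromosome 14 lies at the upper left with 11.4% and 6.09 loops per Mb, and chromosome 11 at the far right with 5.40% and 13.2 loops per Mb.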

How the data were processed

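Both deposited lists hold genome coordinates in bp, with no header, score or value per sample, and were made by the authors once for 18 samples. The build is mm9, per the submitters' processing notes. On 8 of the 20 chromosomes the lists reach beyond every gene of the available GRCm38 table, so its positions were not used. Aligner, callers, resolutions and filters are not given in the sources used here. Columns of per-sample values left without a sample: 0 were found.

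Starts were read as counted from 0 and are printed from 1. A boundary was a distinct domain start or end. Loops with both anchors starting at multiples of 10 kb formed the 10 kb grid, those with an anchor 2500 or 7500 bp past such a multiple the 5 kb grid, and the rest the 2 kb grid. Medians, shares and counts were computed per autosome with Python 3.11.15, scipy 1.17.1, pandas 2.3.3 and numpy 2.4.6; matplotlib 3.10.9 drew the plots. A test of the grids had been planned and was left out, since the definition favours 1 grid. Scripts were tested on simulated lists. Members, measures and tests were chosen with earlier results of these data known. Loops were named by rule: the 5 most remote, the 5 corner loops closest to a domain's ends, the shortest, the longest and the first at the rule's edge. Alternatives covered what counts as sharing, span, grid, domains and distances.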

Additional observations from a re-analysis of the deposited data

How the results depend on the processing

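The number of isolated loops depended on what counts as sharing: it was 6075 (38.3% of held autosomal loops) when only identical coordinates counted, 4931 (31.1%) when only loops on the same grid could share, 493 (3.11%) when anchors within 10 kb counted and 206 (1.30%) within 50 kb. Counting each contact once gave 7.92%, and no limit on span 7.96%. The difference in median span was -41.1 kb on the 5 kb grid and -12.1 kb with domains that hold no other, both past the threshold, and turned to 1.34 kb for loops over 50 kb from any other anchor and to 2.55 kb within span classes, neither past it. The value within span classes is held near 0 by its construction and says nothing about the direction. For the 2 kb and 10 kb grids the difference was -23.2 and -20.3 kb. These 2 grids were added as alternatives after the data were examined. The corner difference fell to -0.32 percentage points with domains inside no other. The difference in domain size fell to 22.3 kb for 5 kb steps and to 2.81 kb for 10 kb steps, and that in holding domains missed the threshold at 0.208 on the 2 kb grid. The cause was not tested in any of these. The excess on the 10 kb grid was 5.60 points without loops within 10 kb of another anchor and 2.67 points without those within 50 kb, where the 5 kb grid's difference was -0.42 points.

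Leaving out each autosome in turn moved no test across the threshold. The differences then ran from -7.79 to -7.02 percentage points for boundaries, -2.44 to -2.07 for corners, -6.90 to -5.94 for the share of the domain spanned, 42.0 to 54.3 kb for domain size, 0.141 to 0.178 for holding domains and -8.97 to -2.44 kb for span. Differences for boundaries and for the share of the domain spanned kept their direction and passed the threshold under all 30 and 28 tested alternatives. All of these alternatives still chose isolated loops by the absence of an overlapping anchor.

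No paired analysis was possible because neither list gives values by sample (the tests pair isolated with sharing loops by autosome), and alternatives on auxin, promoters and motifs were not run. Contacts under the callers' thresholds are not listed, and the depth is unknown here.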
